A study of Rattus norvegicus with 9 samples.

Results

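The genes S100b, Pmp22, Mbp, Cnp, Mag, Sox10, Fabp7, Ednrb, Apoe and Prx, all used to recognise satellite glia and Schwann cells, were followed in cultured sympathetic neurons. Every probe set that the platform annotation gives to a member alone was taken, which yielded 14 probe sets of 9 genes among 8740 probe sets tested. The annotation names no probe set for Ednrb. A probe set for it is named in a list of the study that holds genes differing between the treatment times on these same arrays, so Ednrb was kept apart from all counts and its values are a description, with no test. With it, the genes numbered 10 and the probe sets 15.

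Neurons dissociated from superior cervical ganglia of Holtzman rats at embryonic day 21 were grown in serum-free C2 medium with nerve growth factor at 100 ng/ml. All cultures received Ara-C, which kills dividing cells, for 48 hr to deplete glia and other non-neuronal cells, and were treated on day 5. Control cultures stayed in C2 medium alone for 24 hr, the cultures called BMP6h were exposed to 50 ng/ml BMP-7 for 6 hr, and those called BMP24h to the same dose for 24 hr, with 3 arrays per group. Each RNA sample came from pooled culture plates of 1 of 3 dissections, and the RNA of all groups was isolated on day 6. Array batch 1 consisted of replicate 1 of every group, with 10 µg cRNA on an array, and batch 2 of replicates 2 and 3, with 5 µg. Values are log2 expression, so a difference of 1 is a 2-fold difference.

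A sympathetic ganglion holds 2 main kinds of glia, both derived from the neural crest. Satellite glia wrap the cell bodies of neurons, buffer their surroundings and supply lipids, while Schwann cells ensheathe the axons and, around some of them, build myelin. Both kinds are specified by the transcription factor Sox10, and both can release BMPs, which is why their removal matters in a culture where dendrites are to be induced by added BMP-7 alone. The comparisons below ask how much signal the glial genes gave in cultures depleted of glia, and whether that signal differed with BMP-7.

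Sox10 protein binds short DNA elements related to ACAAAG and ACAATG, and Sox10 is known to act on genes of myelin, so the promoters of the members were searched for these letters on both strands. RefSeq windows of 250 bases before to 50 bases after the start of a gene (rat build GRCr8) were at hand for 9 of the 10 genes, all but Sox10. The element was present in those of Mbp, Cnp and Mag, that is in 3 of 9 genes, and in 29.1% of all 33469 windows, so a match is common. A gene counted if any of its windows matched, while the share is over single windows. The stretches of 30 bases around it are shown for Cnp and Mag, with the matching letters in capitals, and that of Mbp is not shown. The one of Cnp lies on the plus strand at chr10:86011289-86011318, with the element 203 bases before the start, and the one of Mag on the minus strand at chr1:95291179-95291208, 152 bases before the start, where the letters read as the reverse complement of ACAAAG.
Cnp: aacttttaagtaACAAAGaggtggcggact
Mag: tgacaagggcccCTTTGTgcccccctcccc
The element GGCGCC, which Smad proteins downstream of BMP receptors can bind, was in none of the windows of the 9 genes and in 11% of all windows. These matches describe letters in a window and were not tested for binding.

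The arrays were unequal. The share of all probe sets that departed by over 1 log2 unit from their group mates was 9.99% on BMP6h replicate 2. It was 4.21% on BMP6h replicate 3 and 3.84% on control replicate 3, and did not exceed 1.09% elsewhere. Mean brightness of the spiked hybridization controls was 8.41 on BMP24h replicate 2 and between 9.38 and 10.00 on the rest. These arrays are named beside the glial values that rest on them.

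In control cultures, the signal of the glial genes ranged from that of probe sets without a target to among the brightest on the array. As a reference, 15 control probe sets for bacterial transcripts that no label gives as spiked had control means from 3.66 to 6.95, with a median of 4.25 and a second brightest of 5.24. Pmp22 and Apoe each had a probe set brighter than 9, and Fabp7 lay below the whole reference. Of the 14 member probe sets, 9 were brighter than every reference probe set (64.3%), against 47.3% of all 8740. A brightness depends on the probes as well as on the transcript, so the genes are not put in order by it. For the same reason, lying above the reference does not show that a transcript was present.

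Sox10, the transcription factor that defines the glial lineage of the neural crest, read 4.73, 4.69 and 4.28 on control replicates 1, 2 and 3. Its control mean of 4.57 was higher than 9 of the 15 reference probe sets, and none of its values on the 9 arrays, the highest of which was 4.91, reached the second brightest. Fabp7, a fatty acid binding protein of satellite glia and radial glia, read 3.67, 3.83 and 3.42, with a mean of 3.64 that was below all 15. Ednrb, the endothelin receptor of glia and their crest precursors, read 4.60, 4.88 and 4.39, higher in the mean than 10 of the 15. These 3 genes therefore lay within or below the span of probe sets without a known target, which does not show that their transcripts were absent.

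Among the genes of myelin, Mag, an adhesion protein of the innermost myelin layer, had control means of 7.13 ± 0.13, 7.48 ± 0.05 and 7.89 ± 0.03 (SD, n = 3) at its probe sets M22357_at, M22357_g_at and X06554cds_s_at, all above the reference. Mbp, the protein that holds the inner faces of compact myelin together, stood at 7.02 ± 0.14, just above the brightest reference probe set. Cnp, a cyclic nucleotide phosphodiesterase of uncompacted myelin, had 6.95 ± 0.15, and Prx, a scaffold protein of myelinating Schwann cells, 6.51 ± 0.23, and each was brighter than 14 of the 15. Mbp, Cnp and Prx thus lay close to the single brightest reference probe set and clear of the others.

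Pmp22, a membrane protein of peripheral myelin that growth-arrested fibroblasts also make, read 12.01, 11.91 and 12.18 at probe set S55427_s_at on the 3 control arrays, brighter than 98.5% of all probe sets. At its other probe set, rc_AA924909_at, it read 6.99, 7.03 and 7.22, brighter than 55.4%. The probe sets of this gene therefore gave very unequal brightness, and an ending in _s_at marks probes that may match more than 1 transcript. Apoe, the lipid carrier made by satellite glia, astrocytes and macrophages, read 9.27, 9.17 and 9.35 at X04979_at and 7.43, 7.24 and 7.87 at S76779_s_at. S100b, a calcium-binding protein of Schwann cells and satellite glia, had 7.61 ± 0.31 at rc_AI146214_at and 6.74 ± 0.13 at S53527mRNA_s_at, and the latter was below the brightest reference probe set.

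**Figure D1:**
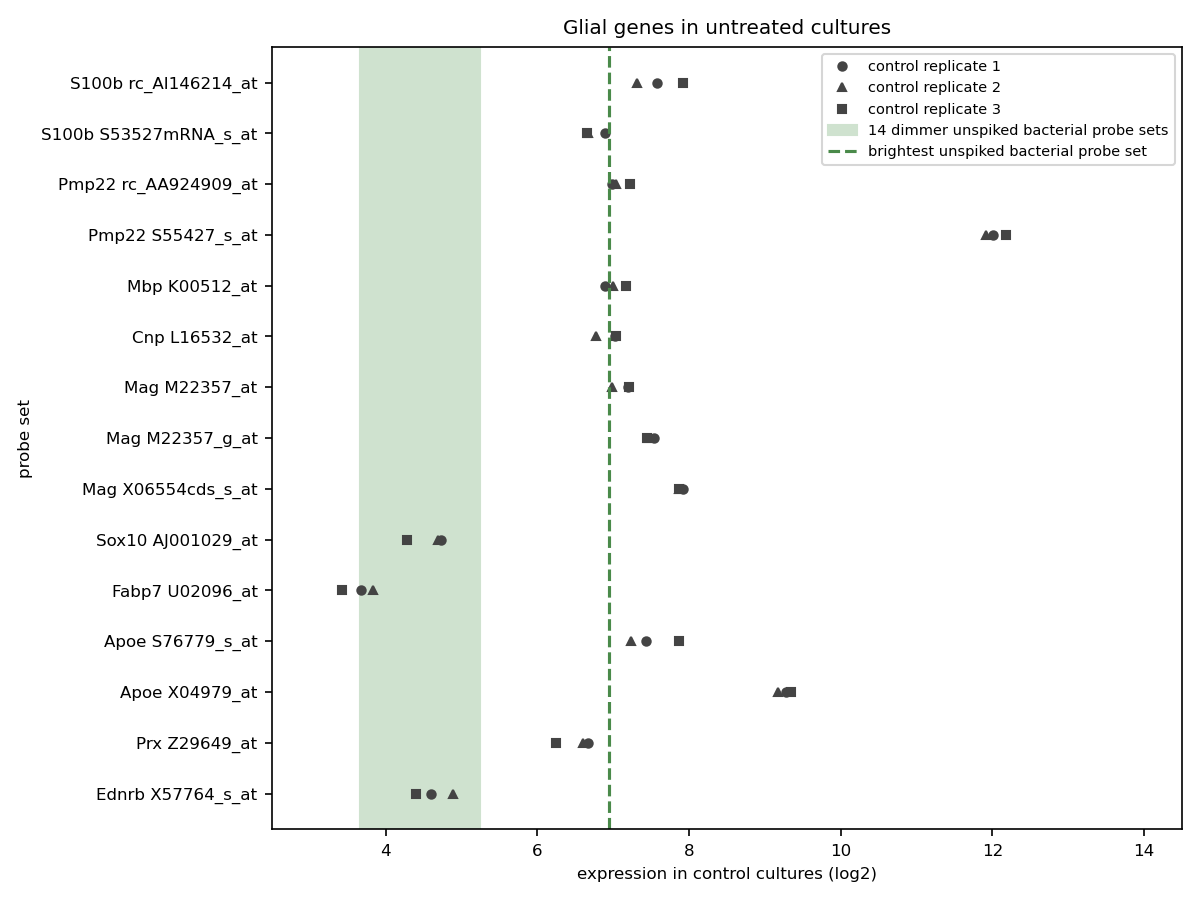
Expression (log2, x axis) of each of the 15 glial probe sets (y axis) on the 3 control arrays, 1 marker per array, with a green band for the 14 dimmer unspiked bacterial probe sets (3.66 to 5.24) and a dashed line for the brightest (6.95). Sox10, Fabp7 and Ednrb lie in or below the band, and Pmp22 S55427_s_at lies near 12.

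At 6 hr, no glial gene passed the test against control. The median log2 fold change of the 14 probe sets was -0.01, beside -0.02 over all 8740, and 7 of the 14 were above 0. Values ran from -0.34 for Pmp22 rc_AA924909_at to 0.28 for Sox10. In limma with Benjamini-Hochberg adjustment over all probe sets, 0 of 14 had an adjusted p under 0.05 (lowest 0.887), where 0.0458% of all probe sets did. The study's Methods set a fold change of 1.2 or more together with an unadjusted p under 0.05, and at these thresholds the count was 0 of 14 against 1.73% of all, and at an unadjusted p under 0.05 alone it was also 0 against 1.73%. The lowest unadjusted p of a member was 0.0731.

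Pmp22 at rc_AA924909_at was the probe set nearest to a difference at 6 hr. It read 6.99, 7.03 and 7.22 on the control arrays and 6.86, 6.43 and 6.93 on the BMP6h arrays. All BMP6h values were below all control values, by 0.12 log2 within batch 1 and 0.44 within batch 2, and the lowest came from replicate 2, the array that stands apart. The log2 fold change was -0.34 (95% interval -0.71 to 0.04), and it came past the thresholds of the Methods when BMP6h replicate 3 was left out or no batch term was fitted. It was -0.11 with both BMP6h replicate 2 and control replicate 3 left out, an alternative added after the values were seen. It was the single member of 14 with groups that did not overlap toward lower values, which 6.96% of all probe sets showed, and 0 of 14 were separated toward higher values, against 3.65% of all. The other probe set of the gene, S55427_s_at, read 12.04, 12.00 and 12.09 at 6 hr, for a log2 fold change of 0.01 (95% interval -0.30 to 0.32).

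Sox10 read 4.72, 4.91 and 4.91 on the BMP6h arrays, against 4.73, 4.69 and 4.28 in control. The groups overlapped, and the arrays of batch 1 read nearly the same. The log2 fold change was 0.28 with a standard error of 0.15, and it was 0.11 without the same 2 arrays. Prx followed the same arrays, reading 6.58, 6.87 and 6.73 at 6 hr against 6.67, 6.61 and 6.24. Its log2 fold change of 0.22 was 0.01 without those 2 arrays.

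The myelin genes Mbp, Cnp and Mag varied widely on the BMP6h arrays. Mbp read 6.81, 7.41 and 6.42, so that replicate 2 was above and replicate 3 below every control value of 6.90, 7.00 and 7.17. Cnp read 6.81, 6.14 and 7.15, with replicate 2 lowest here, against 7.02, 6.78 and 7.04 in control. Mag at M22357_at read 7.06, 7.96 and 6.82, with replicate 2 highest of all 9 arrays, but at M22357_g_at it read 7.43, 7.46 and 7.46. On BMP6h replicate 2, then, these genes departed in opposite directions, and probe sets of 1 gene did not move together. Log2 fold changes were -0.14 for Mbp, -0.25 for Cnp and 0.15, -0.04 and 0.06 for the probe sets of Mag. That of Cnp turned to 0.08 when BMP6h replicate 2 and control replicate 3 were left out.

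Apoe had log2 fold changes at 6 hr of -0.21 at S76779_s_at and -0.12 at X04979_at, with groups that overlapped at both. Without BMP6h replicate 2, its lowest array, and control replicate 3, its highest, they were 0.17 and -0.02, so that the first turned in direction. S100b gave -0.27 at rc_AI146214_at and 0.19 at S53527mRNA_s_at, opposite in sign with intervals that include 0. Fabp7 read 3.63, 3.73 and 3.82, a log2 fold change of 0.09 at a brightness where the reference probe sets lie.

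**Figure D2:**
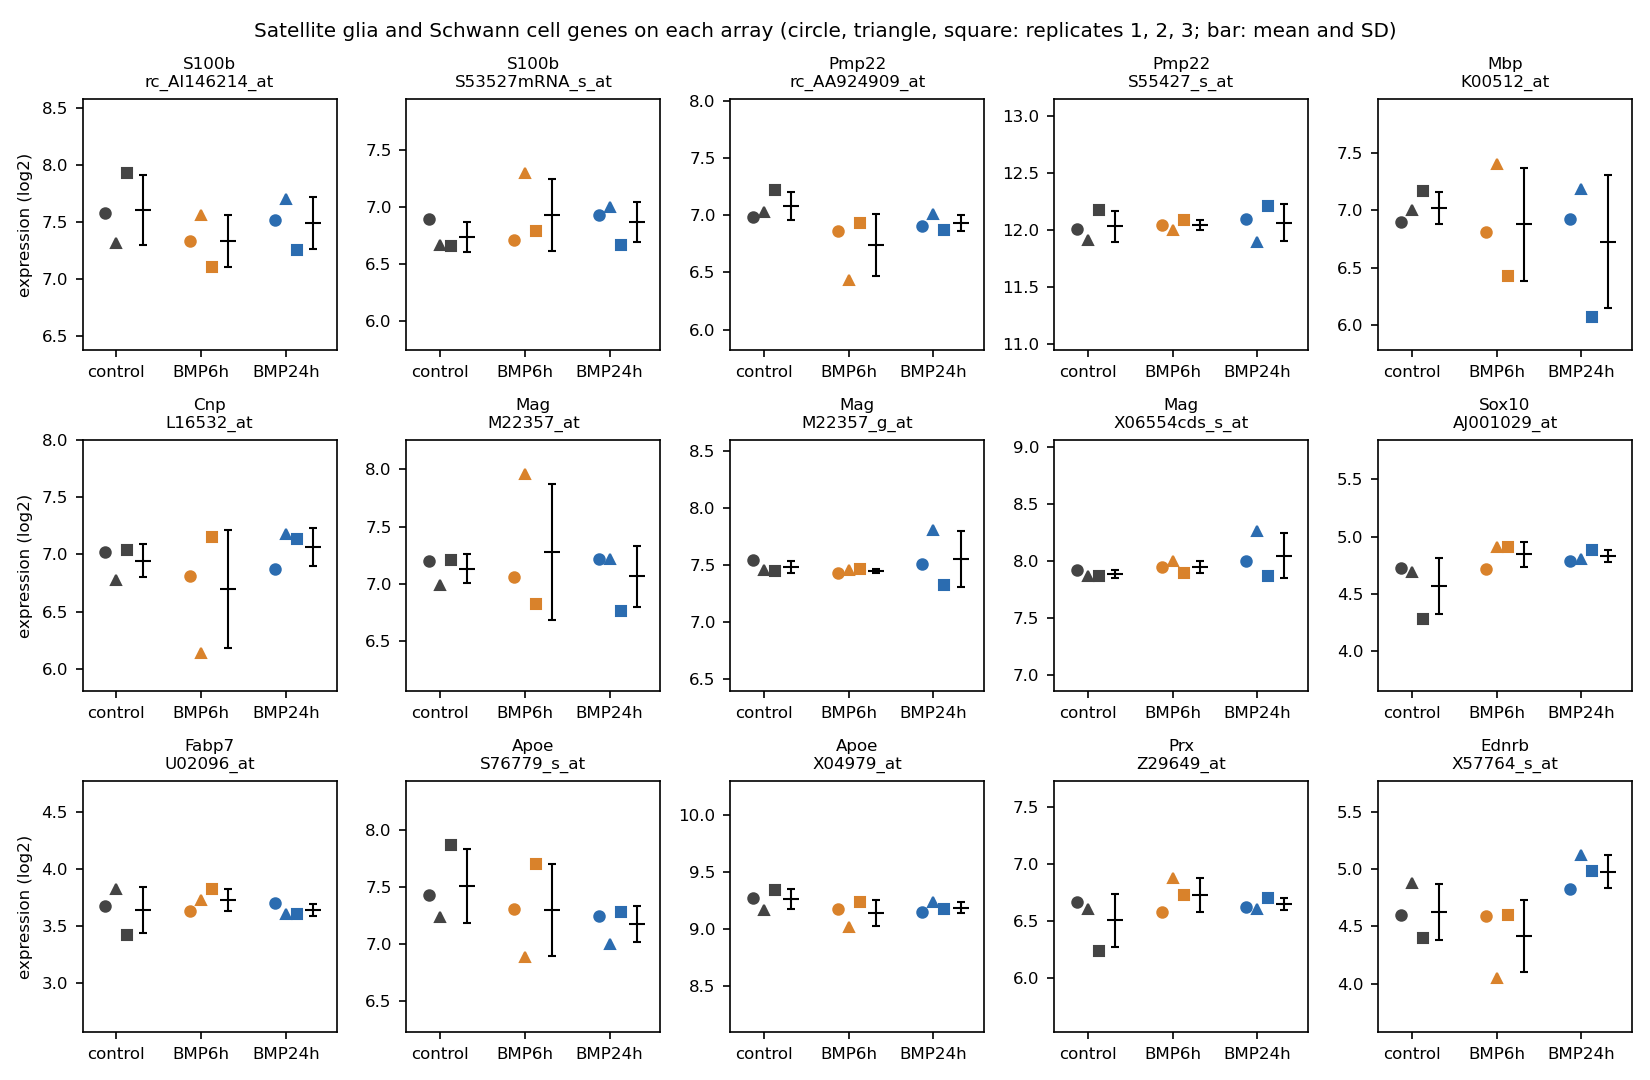
Expression (log2, y axis; each panel has its own range) of the 15 glial probe sets on each array of the 3 groups (x axis), with circles, triangles and squares for replicates 1, 2 and 3 and the bar for the mean and SD of 3 arrays. Circles lie close together across groups, and the orange triangles (BMP6h replicate 2) lie farthest from the other points for Cnp, Mag M22357_at and Ednrb, as the blue square (BMP24h replicate 3) does for Mbp.

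At 24 hr the picture was similar. The median log2 fold change of the 14 probe sets was 0.02, beside 0.01 over all probe sets, 7 of 14 were above 0, and the range was -0.33 for Apoe S76779_s_at to 0.26 for Sox10. In limma, 0 of 14 had an adjusted p under 0.05 (lowest 1), against 0.217% of all. None reached the thresholds of the Methods, against 3.34% of all, or an unadjusted p under 0.05, against 3.4%, and the lowest member p was 0.123.

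Sox10 read 4.79, 4.80 and 4.89 on the BMP24h arrays, all above the control values of 4.73, 4.69 and 4.28. It was the 1 member of 14 separated toward higher values, which 5.61% of all probe sets were, and 0 of 14 were separated toward lower values, against 7.07%. The log2 fold change was 0.26 (standard error 0.15, 95% interval -0.09 to 0.61), with a difference of 0.06 within batch 1 and 0.36 within batch 2. Control replicate 3 held the lowest Sox10 value of the 9 arrays, and every value lay within the span of the dim reference probe sets.

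Apoe at S76779_s_at read 7.25, 7.00 and 7.28 at 24 hr against 7.43, 7.24 and 7.87 in control. The groups overlapped, since replicates 1 and 3 exceeded the lowest control value. The log2 fold change was -0.33 (95% interval -0.91 to 0.24). At the brighter Apoe probe set X04979_at, the BMP24h arrays read 9.15, 9.24 and 9.18, for a log2 fold change of -0.08 (95% interval -0.35 to 0.20).

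Mbp read 6.92, 7.18 and 6.07 at 24 hr, and replicate 3 was the lowest of all 9 arrays. Its log2 fold change of -0.30 had the widest interval, -1.08 to 0.49, and was the only one among the 14 that reached beyond a 2-fold change at 24 hr. Cnp read 6.87, 7.18 and 7.14 with a log2 fold change of 0.12, and the probe sets of Mag gave -0.06, 0.07 and 0.16, all with groups that overlapped. Pmp22 stood at -0.15 and 0.03, S100b at -0.12 and 0.13, Prx at 0.14 and Fabp7 at 0.00.

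The intervals say what the arrays could have missed. At 6 hr, the 95% interval of all 14 probe sets stayed within a 2-fold change and that of 6 within a 1.5-fold change. At 24 hr the numbers were 13 and 8. Standard errors ran from 0.12 for Apoe X04979_at to 0.34 for Mbp. Changes that lie inside the interval of a probe set are not excluded by 3 arrays a group. In bulk RNA, fewer glial cells and less of a transcript per glial cell cannot be told apart.

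**Figure D3:**
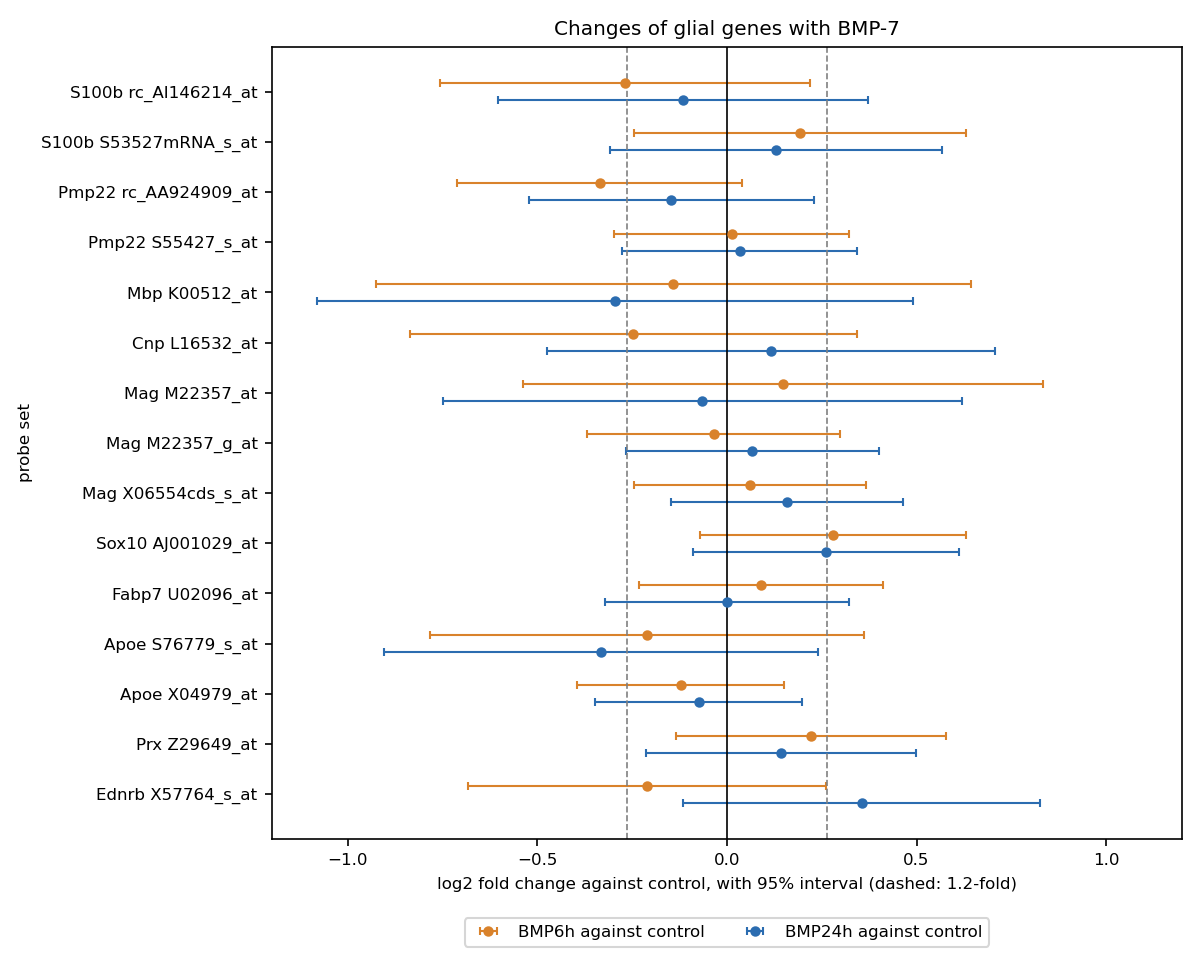
Log2 fold change against control (x axis) of the 15 glial probe sets (y axis) at 6 hr (orange) and 24 hr (blue), with 95% intervals from limma and dashed lines at a 1.2-fold change. Each interval includes 0.

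Between the times, the 14 probe sets had a median log2 difference (BMP24h minus BMP6h) of 0.00, beside 0.03 over all, with 7 above 0. In limma, 0 of 14 passed at an adjusted p under 0.05 (lowest 0.939), as did 0% of all probe sets. The count was 0 at the thresholds of the Methods, against 2.92% of all, and 0 at an unadjusted p under 0.05, against 2.96%. No member was separated toward higher values, against 5.63% of all, or toward lower values, against 4.04%. The largest difference was that of Cnp, 0.36 with a 95% interval of -0.23 to 0.95, where the low value of BMP6h replicate 2 enters, and it too came past the thresholds of the Methods without BMP6h replicate 3. All 3 comparisons share groups, so their values are not independent of each other.

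Ednrb read 4.60, 4.88 and 4.39 in control, 4.59, 4.05 and 4.60 at 6 hr and 4.83, 5.12 and 4.99 at 24 hr. All BMP24h values were above all BMP6h values, while both overlapped control. The log2 difference between the times was 0.57, of which the naming of the probe set already gives the direction, and it was 0.24 within batch 1 and 0.73 within batch 2. Against control, the log2 fold changes were -0.21 at 6 hr and 0.35 at 24 hr. The BMP24h mean of 4.98 was still below the second brightest reference probe set. Without BMP6h replicate 2, which holds the lowest value, the difference between the times was 0.37.

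The glial values were compared from array to array, beside all probe sets. Averaged over the 14 probe sets, the member mean was 7.27, 7.18 and 7.28 on the control arrays, 7.17, 7.26 and 7.22 on the BMP6h arrays and 7.25, 7.32 and 7.13 on the BMP24h arrays. The groups overlapped in this mean. BMP6h replicate 2 held the highest value of 5 of the 14 (S100b S53527mRNA_s_at, Mbp, Mag M22357_at, Sox10 and Prx) and the lowest of 4 (Pmp22 rc_AA924909_at, Cnp and both of Apoe). Over all probe sets that array was highest for 23.9% and lowest for 34.5%, so holding many extremes of both kinds was not particular to the glial genes.

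Control replicate 3 likewise held both extremes. It was highest for 4 probe sets (S100b rc_AI146214_at, Pmp22 rc_AA924909_at and both of Apoe) and lowest for 5 (S100b S53527mRNA_s_at, Mag X06554cds_s_at, Sox10, Fabp7 and Prx), where over all probe sets it was highest for 19.3% and lowest for 21.4%. Apoe and Pmp22 rc_AA924909_at thus stood high and Sox10, Fabp7 and Prx low on the same culture. BMP24h replicate 2 was highest for 3, Cnp and 2 probe sets of Mag. The replicate 1 arrays held no highest or lowest value of any member, and between 1.18% and 2.4% of all. Member values that departed by over 0.5 log2 from their group mates numbered 5 on BMP6h replicate 2, 4 on BMP6h replicate 3, 1 each on control replicate 3, BMP24h replicate 2 and BMP24h replicate 3, and 0 on the others. Whether these deviations come from the cells of a dissection or from the array was not tested.

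**Figure D4:**
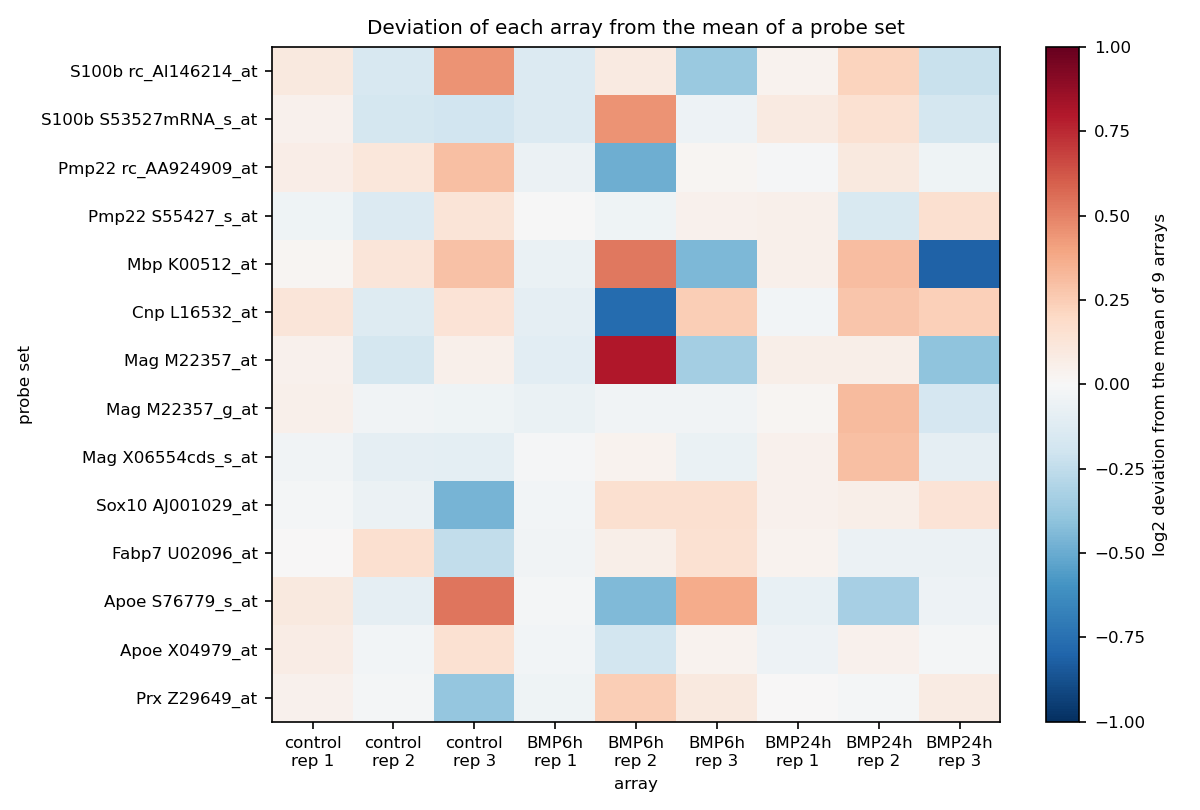
Deviation (log2, colour scale) of each array (x axis) from the mean of 9 arrays, for the 14 glial probe sets (y axis). No array is red or blue throughout: BMP6h replicate 2 is highest for 5 and lowest for 4, and the 3 replicate 1 arrays are pale.

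Spread within groups was unequal among the members. The pooled SD within groups was 0.45 for Mbp, larger than for 89.2% of all probe sets, 0.39 for Mag M22357_at and 0.32 for Cnp. It was 0.09 for Apoe X04979_at, smaller than for all but 8.83%, and 0.12 for Pmp22 S55427_s_at and Mag X06554cds_s_at, beside a median of 0.21 over all probe sets. These 3 probe sets, the least variable of the 14, had log2 fold changes between -0.12 and 0.16 at both times.

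Further genes of Schwann cells and myelin gave no call against control. Of 20 listed, 10 were measured. Against control, 5 were higher and 5 lower at each time (median log2 fold change 0.03 at 6 hr and 0.02 at 24 hr), and 0 of 10 passed at either threshold or had an unadjusted p under 0.05 in limma. Egr2, the transcription factor that starts the myelin program, read 5.51, 5.30 and 5.67 in control, 5.28, 5.08 and 5.37 at 6 hr and 5.32, 5.37 and 5.42 at 24 hr, for log2 fold changes of -0.25 and -0.12 with overlapping groups. Erbb3, the neuregulin receptor of Schwann cells, read 7.03, 7.05 and 7.19 in control and 6.98, 6.78 and 6.80 at 6 hr at its brightest probe set. All 6 hr values were lower there, by 0.24 in log2, but the other probe set of the gene gave 0.21.

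Pou3f1, a transcription factor of promyelinating Schwann cells that some neurons also use, was the only gene of the list past the thresholds of the Methods in any comparison. It passed for 24 hr against 6 hr, as 1 of 10 genes, where 2.92% of all probe sets passed. It read 6.26, 5.57 and 6.30 at 6 hr and 5.27, 5.58 and 5.31 at 24 hr. The groups overlapped, since replicate 2 read 5.57 and 5.58. The log2 difference of 24 hr against 6 hr was -0.66 (standard error 0.22, unadjusted p = 0.0195, adjusted p = 0.939 in limma), and against control it was 0.41 at 6 hr and -0.24 at 24 hr.

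Of 18 further genes of satellite glia and astroglia, 14 were measured, and Gfap was not analysed here. Higher and lower values numbered 6 and 8 at 6 hr and 9 and 5 at 24 hr, with medians of -0.01 and 0.06, and 0 of 14 passed at either threshold in any comparison. Glul, the glutamine synthetase of satellite glia, read 8.18, 8.23 and 8.13 in control, 8.15, 8.10 and 8.16 at 6 hr and 8.31, 8.35 and 8.32 at 24 hr at its brightest probe set. All 24 hr values lay above all others, by 0.14 log2 over control (standard error 0.10, unadjusted p = 0.201 in limma). The study lists this probe set as upregulated by BMP-7, at an unadjusted p across the 3 groups, which is a different test. The 4 probe sets of Glul ran from -0.41 to 0.33 at 24 hr. M91652complete_seq_at, at 0.33, was likewise above all control values, and rc_AA852004_s_at, at -0.41, was below them all. Of all probe sets, 5.61% were separated from control toward higher values and 7.07% toward lower values at 24 hr. Aqp4, Aldh1l1, Entpd2 and Dbi of this list, like Mal, Mobp and Foxd3 of the list before, had the highest of 9 values on BMP6h replicate 2. There, Aldh1l1 read 7.37 against 5.16 to 6.30 elsewhere. Glul, Ptgds, Ptprz1 and Slc1a2, with Egr2, Erbb3 and Ugt8 of the list before, had their lowest value on that same array. Over all probe sets it was highest for 23.9% and lowest for 34.5%. These extremes were looked up after the values were seen.

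Markers of other cells set the scale. Of 12 measured genes of sympathetic neurons, all 12 were brighter in control than every reference probe set, with Th, the rate-limiting enzyme of catecholamine synthesis, at 13.49 and Dbh, which makes noradrenaline, at 11.94. The corresponding number was 5 of 9 for the glial members (each at its brightest probe set), 5 of 10 for further Schwann and myelin genes and 6 of 14 for further satellite and astroglial genes. It was 15 of 16 for fibroblast and matrix genes, with Col1a1 at 10.30 and Dcn at 9.78, 3 of 5 for endothelial genes (Pecam1 5.63), 4 of 9 for macrophage and blood genes, where Cd68 was not analysed here, and 4 of 9 for genes of proliferation (Top2a 6.71). The same bar was passed by 47.3% of all 8740 probe sets, and the counts of the members and of both further glial lists lay near that share. Taking the brightest probe set of each gene can raise the count of a list. Per array, the mean of the neuron list lay between 11.42 and 11.69, that of the members between 7.21 and 7.39 and that of the fibroblast list between 8.85 and 9.32.

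None of these lists had a call at an adjusted p under 0.05 in limma in any comparison. In the fibroblast list, 10 of 16 genes were lower at 24 hr (median -0.16), and 3 of them, the matrix genes Dcn, Lum and Mgp, were past the thresholds of the Methods, beside 3.34% of all probe sets and a median of 0.01 over all. Dcn, a collagen-binding proteoglycan, stood at -0.73 in log2 (unadjusted p = 0.0025, adjusted p = 0.323). Of the fibroblast genes 14 of 16 were lower at 24 hr than at 6 hr, with a median of -0.25 beside 0.03 over all probe sets. The 4 probe sets of Dcn disagreed, with -0.01 for X59859_r_at and -0.82 to -0.68 for the others at 24 hr, and -0.67, -0.39, -0.02 and 0.01 at 6 hr. Col1a1, a chain of type I collagen, had 0.31 at its brightest probe set at 6 hr and 0.10 to 0.37 at the others. At 6 hr Col1a1 was past the thresholds of the Methods toward higher values, at its brightest probe set and at Z78279_g_at. Dcn was past them toward lower values at X59859_i_at (-0.39), beside 1.73% of all probe sets. Past the same thresholds were also Ddc among the neuron genes (-0.45 at 24 hr) and Kdr among the endothelial genes (-1.54 at 6 hr and -1.39 at 24 hr, with a control SD of 1.15), and these, like Lum and Mgp, were named after their values were seen. The neuron list had medians of 0.02 and -0.04 and the glial members, at 1 probe set a gene, 0.01 and 0.03. Endothelial genes had medians of -0.28 and -0.13, macrophage and blood genes -0.01 and -0.06, and proliferation genes 0.03 and -0.04.

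**Figure D5:**
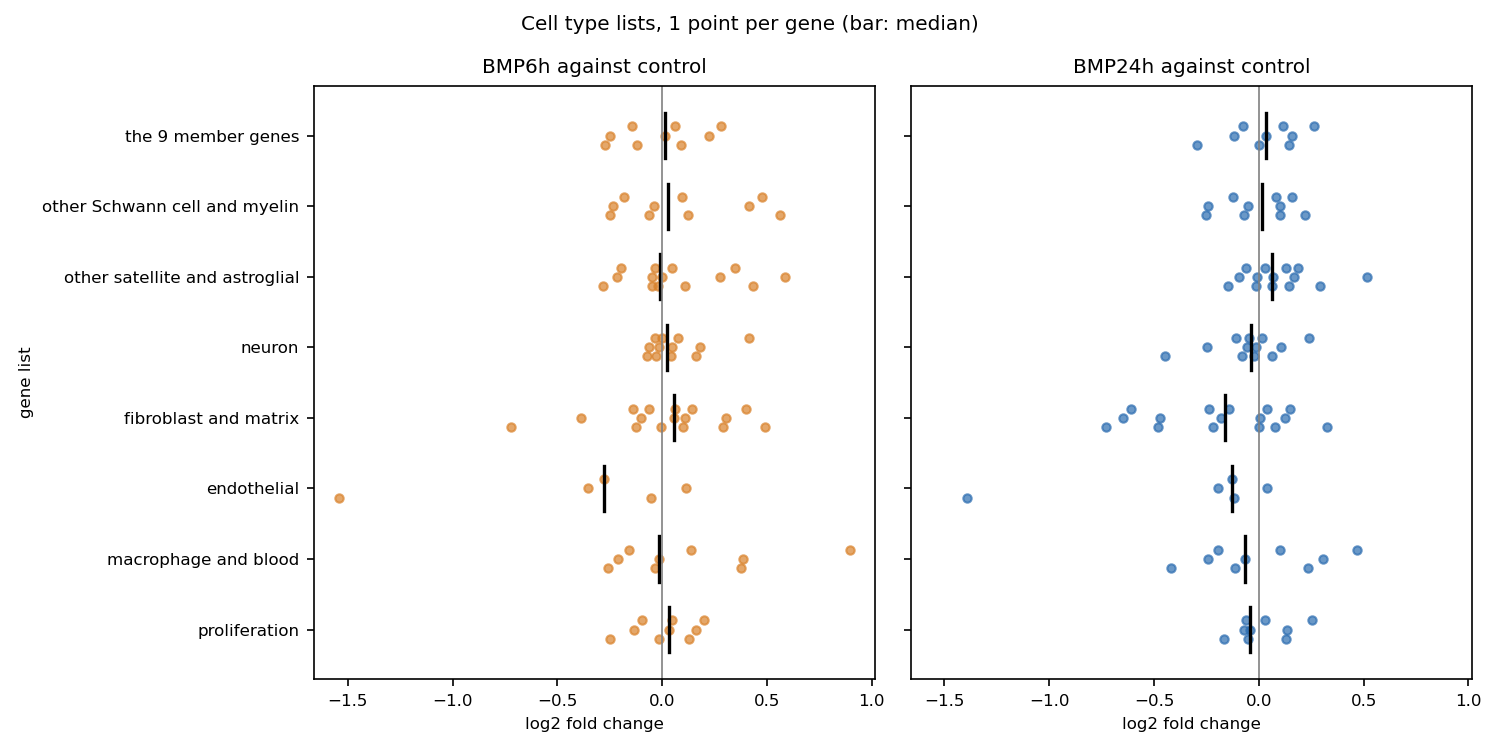
Log2 fold change (x axis) of each measured gene, 1 point per gene at its brightest probe set, for the glial members and 7 lists of markers (y axis), at 6 hr (left) and 24 hr (right), with a bar for the median of a list. The medians of the members and of both further glial lists lie between -0.01 and 0.06, and the fibroblast list reaches -0.73 at 24 hr.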

How the data were processed

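RNA of 9 pooled cultures was hybridized to Affymetrix Rat Genome U34A arrays. Using RMA and a batch removal step in Partek, the authors computed the deposited log2 values. In these, no probe set had batch means further apart than 6.7e-05. The tests took 8740 of 8799 probe sets, without 59 controls. The platform annotation names 1 gene for 7006 of them, several for 308 and none for 1426.

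A linear model of treatment and array batch over all arrays (5 residual degrees of freedom) was fitted in limma 3.58.1 (R 4.3.3), with Benjamini-Hochberg adjustment over all 8740. The fit was run on simulated data with independent errors, equal spread on all arrays and no batch effect. That run therefore does not cover the unequal arrays described above. Replicates came from separate dissections. Precision is limited by having 3 arrays a group. The named genes are all members, Egr2, Erbb3, Gfap and Glul with any gene of their lists past the thresholds of the Methods, and fixed markers of other cells (Th, Dbh, Col1a1, Dcn, Pecam1, Cd68, Top2a), each at its brightest probe set. Further names were chosen after their values were seen. Members and lists were chosen with earlier results of these data known. Alternatives covered the batch term, replicate block, batch 2 alone, normalization, dim probe sets, prior variance, array weights, groups in the fit and each array left out. Of the authors' own comparisons, only the list that names the Ednrb probe set and the listing of Glul were used.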

Additional observations from a re-analysis of the deposited data

How the results depend on the processing

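Removal of dim probe sets, an alternative, kept 12 of the 14 glial probe sets, without Sox10 and Fabp7. At an adjusted p under 0.05, the count of glial probe sets was 0 in each comparison under all 20 alternatives. At the thresholds of the Methods it was 1 at 6 hr with no batch term (Pmp22 rc_AA924909_at), ranged from 0 to 1 at 6 hr and between the times as arrays were left out, with 1 only without BMP6h replicate 3 (Pmp22 rc_AA924909_at and Cnp), and was 0 throughout at 24 hr as arrays were left out. The median log2 fold change stayed between -0.08 and 0.01 at 6 hr, between -0.03 and 0.07 at 24 hr and between -0.05 and 0.05 between the times. Of 834 values of single probe sets of the 14 under alternatives, 11 moved by more than the spread between replicates, all with array weights (0.093 for BMP6h replicate 2 to 5.76 for BMP24h replicate 1) or without BMP6h replicate 2 and control replicate 3. Those that also turned in direction were S100b S53527mRNA_s_at at 6 hr (from 0.19 to -0.04 with array weights) and, without the 2 arrays, Cnp at 6 hr (from -0.25 to 0.08) and Apoe S76779_s_at at 6 hr (from -0.21 to 0.17). The log2 difference of Ednrb between the times ran from 0.31 to 0.73. The causes were not tested.

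With the replicate block in place of the batch, the counts at the thresholds of the Methods were 0 at 6 hr, 1 at 24 hr (Apoe S76779_s_at) and 0 between the times. Every dissection gave 1 sample of each group, but the labels do not tie a replicate number to a dissection, 2 of 9 same-number pairs of arrays had a correlation of deviations over 0.1 (range -0.74 to 0.532), and 2 of 9 arrays correlated best with their own number, so the pairing was not taken as established.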
